A study of Mus musculus with 4 samples.

Results

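Cluster 16 is 1 of 17 groups of spots that the authors numbered in a spatial transcriptomics study of mouse brain, and its members were taken as every spot with the number 16 in the deposited tables. It held 173 of the 14809 spots of 4 sections. The mice were C57 and of wild type genotype (WT), and the stress was chronic social defeat, a model of repeated encounters with a dominant mouse, after which a social interaction test sorted mice into susceptible (avoiding others) and resilient. Each group was represented by 1 sagittal brain section, and the labels do not name the mice further. The control, resilient and susceptible mice received saline, and the ketamine-treated susceptible mouse received ketamine intraperitoneally at 10 mg/kg, with brains taken 7 days after ketamine. The numbers were taken as 1 clustering of all sections, which no source used here states.

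A spot is a small area of tissue that captures RNA from all cells above it, so it can hold several cells or parts of cells. For each spot the authors deposited the share they assigned to each of 67 named cell types, plus a column named unknown, which makes 68 columns. The shares of a spot sum to 1, and unknown, where given, was always the whole spot. No kept share above 0 was under 10.1% of a spot in any section. A spot is said below to hold a column with a share above 0, and to be led by the column with its highest share. Since shares sum to 1, a gain in one column is a loss in others, and fewer cells of a type and less RNA per cell cannot be told apart. The depth of a spot is unknown, because gene counts were not analysed here, nor were spot positions. Precision rests on the number of spots, and the 95% intervals are exact Clopper-Pearson intervals that cover counting error only. With 1 section per group there are no replicates, and no difference below carries a test.

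The type names combine a cell class with a cortical layer or area. Layer 2 neurons of the lateral entorhinal cortex (ENTl) send the perforant path to the hippocampus and are an entry point for cortical input to memory circuits. Astrocytes (Astro) are glia that take up glutamate and line the brain surface with their endfeet. Cajal-Retzius cells (CR) lie in the outermost cortical layer, and vascular and leptomeningeal cells (VLMC) are fibroblast-like cells of the meninges and larger vessels. No column is named for the thalamus, striatum, cerebellum or brainstem.

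Cluster 16 was found in 3 of 4 sections. It held 81 of 3443 spots in the susceptible section, or 2.35% (1.87 to 2.92). In the ketamine-treated section it held 82 of 3477 spots, or 2.36% (1.88 to 2.92). The resilient section had 10 of 4156 spots, or 0.241% (0.115 to 0.442). The control section had 0 of 3733, which allows a share of up to 0.0804% by the limit of 3 spots used here for a count of 0, and 0.0988% by the exact interval. The susceptible and ketamine-treated shares differed by less than counting error, and both intervals lay above that of the resilient section. The composition is described in the susceptible and ketamine-treated sections, and the 10 resilient spots are given separately.

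The column listed as the marker of the cluster, L2_IT_ENTl, did not lead it. Astro had the highest mean share in every section with cluster 16 spots, at 29.2% of the susceptible, 36.9% of the ketamine-treated and 35.2% of the resilient spots. L2_IT_ENTl, the intratelencephalic neurons of entorhinal layer 2, ranked 3 in the susceptible section, with a mean share of 13.3%, and 2 in the ketamine-treated section, with 14.3%. It was held by 18 of 81 spots in the susceptible section, or 22.2% (13.7 to 32.8), and by 19 of 82 in the ketamine-treated section, or 23.2% (14.6 to 33.8). Most spots of the cluster therefore held none of it. The column was nevertheless concentrated there: cluster 16 held 26.4% of the summed L2_IT_ENTl share of the susceptible section and 18.6% of that of the ketamine-treated section. Cluster 14, whose highest mean share in both sections is L2_IT_ENTl, held 40.3% and 55.95% in the same order.

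Astrocytes were the most widespread type of cluster 16. Astro was held by 32 of 81 susceptible spots, or 39.5% (28.8 to 51.0), and by 47 of 82 ketamine-treated spots, or 57.3% (45.9 to 68.2). It led 27 and 37 of them. Where it was held, its share ran from 19.9% to 100% of a spot with a median of 100% in the susceptible section, and from 26.02% to 100% with a median of 54.1% in the ketamine-treated section. In other words, astrocyte spots of the susceptible section were more often given wholly to that type, 17 of 32 against 15 of 47. Over all spots of the sections, Astro was held by 41.7% (susceptible) and 45.5% (ketamine-treated). Cluster 16 thus held Astro no more often than its section in the susceptible mouse. In the ketamine-treated mouse its interval began just above the share of the section.

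Entorhinal neurons were the leading neuronal group. The 10 glutamatergic types with ENT in their name summed to 24.3% in both sections, and 29 spots held one of them in each. Only 3 of these 10 types were seen in the susceptible section and 5 in the ketamine-treated section. Besides L2_IT_ENTl, the group rested on L2_3_IT_ENTl, the neurons that span entorhinal layers 2 and 3, with mean shares of 10.4% and 8.01%. L2_3_IT_ENTl was held by 10 susceptible and 7 ketamine-treated spots, and it was the whole of 7 and 6 of them. L2_IT_ENTl, by contrast, was usually mixed: where held, its median share was 48.3% and 52.5% of the spot, and it was alone in 5 spots of each section. No spot of cluster 16 in these sections held both, but each was held by few spots, so little overlap could be seen.

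All glutamatergic types together had mean shares of 36.8% and 32.2%. Cajal-Retzius cells, which are listed among them, reached 7.12% in the susceptible section from 12 spots and 4.77% in the ketamine-treated section from 11 spots. They led only 3 spots and 1 spot, so they were mostly a minor part of a mixed spot. L2_IT_RSPv, layer 2 neurons named for the ventral retrosplenial area, had 5.02% in 6 spots and 1.82% in 2 spots. None of the 10 glutamatergic types with CTX in their name was seen in either section. The 4 types with SUB in their name and the 5 hippocampal CA and dentate gyrus types were also at 0. By the limit of 3 spots, a count of 0 allows a share of up to 3.70% of the susceptible and 3.66% of the ketamine-treated cluster 16 spots (4.45% and 4.399% by the exact interval), and says nothing of shares below the smallest one kept. Over all spots of these sections the types with CTX in their name made up 10.2% and 10.9%, and 18.7% and 20.9% of spots held one. Types with SUB in their name were held by only 4.33% and 3.74% of all spots, and the hippocampal types by 4.07% and 2.88%. These values lie below the exact upper bounds. The counts of 0 for the SUB and hippocampal types therefore do not set cluster 16 apart from its sections.

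Among GABAergic neurons, Pvalb_Vipr2, a name that marks chandelier cells in cortical taxonomies, had the highest share, at 4.04% in 6 susceptible spots and 3.37% in 5 ketamine-treated spots. These few spots carried 17.5% and 26.7% of the column's summed share in their sections. The 11 GABAergic types together had 6.76% and 4.18%. One susceptible spot was given wholly to Sncg, interneurons named for gamma-synuclein, which had 0 in the ketamine-treated spots.

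Among glia other than astrocytes, oligodendrocytes and microglia had lower mean shares than in the sections as a whole, and oligodendrocyte precursors had higher ones. Oligo, the myelin-forming oligodendrocytes, had 5.41% of cluster 16 in the susceptible section from 6 spots and 9.24% in the ketamine-treated section from 9 spots. Oligodendrocyte precursors (OPC), which divide and give rise to oligodendrocytes, were held by 2 and 6 spots with mean shares of 1.04% and 2.76%, and led none. Together these 2 columns had 6.45% and 12.01%, against 14.4% and 13.01% over all spots of the sections. Micro, the microglia, were held by 1 and 2 spots, with mean shares of 0.516% and 0.680%. Of the vascular columns, VLMC was held by 5 susceptible and 9 ketamine-treated spots and had 2.96% and 4.33%. Pericytes (Peri), which wrap capillaries, were held by 2 ketamine-treated spots and 0 susceptible spots.

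**Figure D1:**
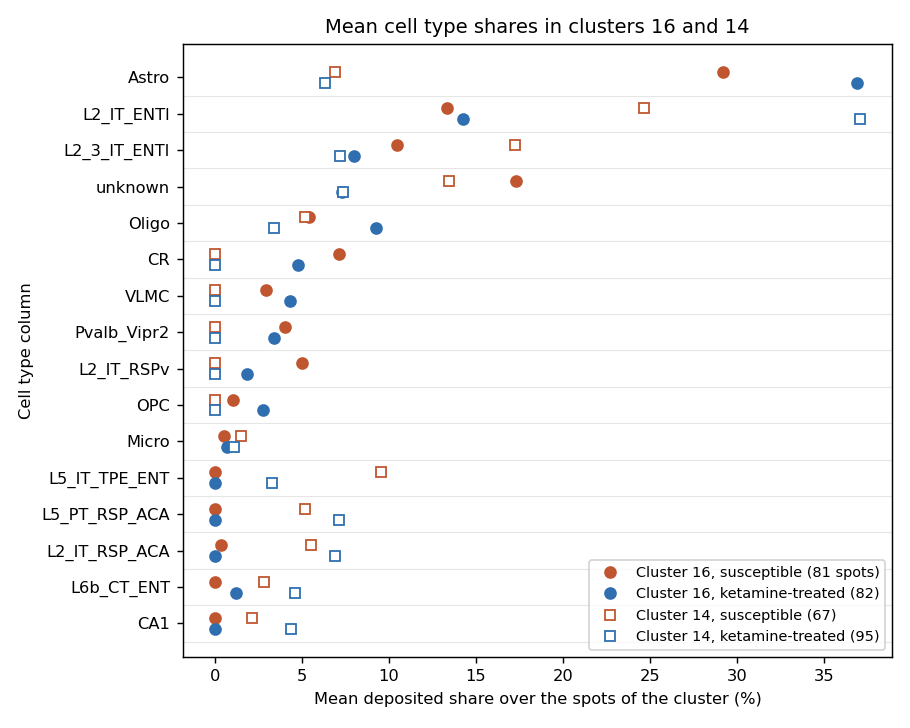
The plot gives the mean deposited share (percent, horizontal axis) of 16 columns over the spots of cluster 16 (filled circles) and cluster 14 (open squares) in the susceptible (orange) and ketamine-treated (blue) sections. Astro stands at 29.2% and 36.9% in cluster 16 and at 6.88% and 6.31% in cluster 14, while CR, VLMC, Pvalb_Vipr2, L2_IT_RSPv and OPC are at 0 in cluster 14.

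Spots given to a single column were common. In the susceptible section 52 of 81 cluster 16 spots held 1 column, or 64.2% (52.8 to 74.6), against 30.0% of all spots of the section. In the ketamine-treated section they were 42 of 82, or 51.2% (39.9 to 62.4), against 27.8%. Cluster 16 ranked 1 and 3 by this share among the 16 clusters with at least 20 spots. Unknown contributed to it: 14 susceptible spots, or 17.3% (9.78 to 27.3), and 6 ketamine-treated spots, or 7.32% (2.73 to 15.2), had no type, where the whole sections had 4.27% and 3.54% and cluster 14 had 13.4% and 7.37%. Among spots with a named type, 38 of 67 in the susceptible and 36 of 76 in the ketamine-treated section still held only 1, or 56.7% and 47.4%. Other clusters had similar shares of single-column spots: cluster 14 had 62.7% and 44.2%, cluster 8 had 60.3% and 57.0%, and cluster 5 had 56.1% and 61.8%. Among spots with a named type, cluster 14 had 56.9% and 39.8%. The number of RNA molecules behind each spot was not analysed here, and its part in these shares was not tested.

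**Figure D2:**
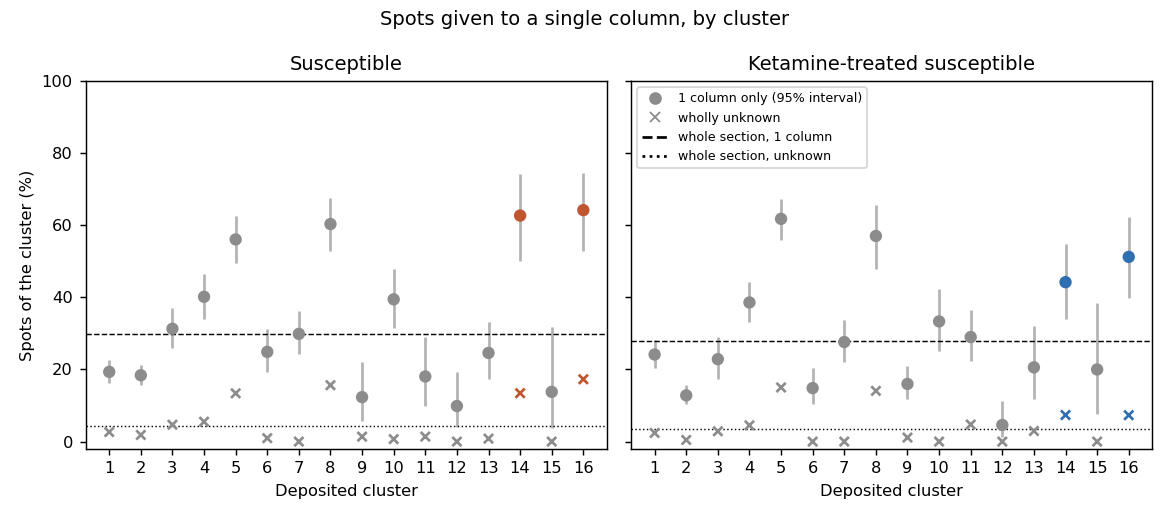
For each deposited cluster with at least 20 spots, the plot gives the percent of spots that hold 1 column (circles, with 95% exact intervals) and the percent given wholly to unknown (crosses), beside the whole section (dashed and dotted lines). Cluster 16 (coloured, as is cluster 14) has single-column shares of 64.2% (susceptible) and 51.2% (ketamine-treated), above the section lines of 30.0% and 27.8%.

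Among spots holding more than 1 column, Astro was in 15 of 29 in the susceptible section, or 51.7% (32.53 to 70.6), and in 32 of 40 in the ketamine-treated section, or 80% (64.4 to 90.9). It shared them with 8 and 15 other columns. Of the 18 susceptible spots that held L2_IT_ENTl, 7 also held Astro, 6 held CR and 5 held nothing else. Of the 19 ketamine-treated spots, 9 held Astro, 7 held CR and 5 held nothing else. Astro and CR shared 6 and 7 spots. Astro and VLMC shared 3 and 9, which is all 9 VLMC spots of the ketamine-treated section. All 6 OPC spots of the ketamine-treated section also held Astro. In cluster 14, L2_IT_ENTl was held by 22 susceptible and 58 ketamine-treated spots. CR was at 0 in all of cluster 14 in both sections, so it could not be a partner there. Astro was held by only 6 of 67 and 13 of 95 cluster 14 spots, and was a partner of L2_IT_ENTl in 0 and 5. The partners therefore restate the composition of the clusters and do not show what L2_IT_ENTl occurs with apart from it. L2_3_IT_ENTl was a partner in 3 and 10 of the L2_IT_ENTl spots of cluster 14. L5_IT_TPE_ENT, named for layer 5 and the entorhinal and adjoining temporal areas, was a partner in 3 and 9.

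Cluster 14 was set against cluster 16 within each section because both carry the entorhinal layer 2 type. It held 67 susceptible and 95 ketamine-treated spots. Columns with a mean share of at least 1% in either cluster were compared, and a ratio of 1.5-fold or more was counted as a difference. In the susceptible section 17 of 20 columns (85%) passed, 6 higher and 11 lower in cluster 16. In the ketamine-treated section 19 of 21 (90.5%) passed, 8 higher and 11 lower. Clusters were made from the same spots, so these counts describe how the clusters differ and test nothing.

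Astro, CR, VLMC, OPC, Pvalb_Vipr2 and L2_IT_RSPv were higher in cluster 16 in both sections. Astro was 4.25-fold and 5.85-fold higher than in cluster 14, where it had 6.88% and 6.31%. Its intervals did not overlap either, since 8.96% (3.36 to 18.5) and 13.7% (7.49 to 22.3) of cluster 14 spots held it. The other 5 columns were at 0 in cluster 14 in both sections. By the limit of 3 spots this allows a share of up to 4.48% of its susceptible and 3.16% of its ketamine-treated spots. The exact upper bounds were 5.36% and 3.81%. Only CR had intervals above these bounds in both sections, at 14.8% (7.90 to 24.4) and 13.4% (6.89 to 22.7) of cluster 16 spots. VLMC lay above the bound in the ketamine-treated section only. The intervals of OPC, Pvalb_Vipr2 and L2_IT_RSPv overlapped the bounds in both sections. The low Astro share and the counts of 0 did not hold for cluster 14 everywhere. In its 72 resilient spots Astro was the highest column at 24.7%, and VLMC (0.975%) and Pvalb_Vipr2 (1.39%) were present. CR, OPC and L2_IT_RSPv were not held there. In the ketamine-treated section Oligo, at 2.70-fold, and Peri, at 0 in cluster 14, were also higher, while the susceptible ratio for Oligo was 1.05.

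L2_IT_ENTl had 24.6% and 37.1% in cluster 14, or 1.85 and 2.60 times its share in cluster 16. In the ketamine-treated section 61.1% (50.5 to 70.9) of cluster 14 spots held it, above the interval for cluster 16. In the susceptible section the value was 32.8% (21.8 to 45.4), and the intervals overlapped. When only neuronal types were kept and rescaled within each spot, the difference in L2_IT_ENTl shrank from -11.3 to -3.82 percentage points in the susceptible section and from -22.8 to -5.69 in the ketamine-treated section.

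The other columns lower in cluster 16 in both sections were L5_IT_TPE_ENT, L5_PT_RSP_ACA (projection neurons named for layer 5 and the retrosplenial and cingulate areas), L2_IT_RSP_ACA, L6b_CT_ENT, L5_IT_CTX, CA1 and Micro. Some of these rest on few spots. Micro was held by 1 spot of each cluster in the susceptible section and 2 of each in the ketamine-treated section. In the susceptible section cluster 14 held CA1 in 2 spots, L5_IT_CTX in 3, L6b_CT_ENT in 3 and L2_IT_RSP_ACA in 5. For each of these columns the intervals of the clusters overlapped there. L5_IT_TPE_ENT had 9.54% and 3.29% in cluster 14 and was at 0 in cluster 16. L5_PT_RSP_ACA had 5.18% and 7.13% in cluster 14 and was also at 0 in cluster 16. L2_3_IT_ENTl was lower in the susceptible section, with 10.4% against 17.2%, and under the 1.5-fold threshold in the ketamine-treated section, with 8.01% against 7.18%. The clusters thus had the L2_IT_ENTl and L2_3_IT_ENTl columns in common, while the layer 5 columns of cluster 14 were not seen in cluster 16. Microglia were low in both, and their lower share in the ketamine-treated section turned to 0.334 percentage points higher when spots holding the column were counted.

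Against all other spots of the same section, 20 of 22 columns (90.9%) in the susceptible and 24 of 25 (96%) in the ketamine-treated section differed by at least 1.5-fold. L2_IT_ENTl was 14.9-fold and 9.46-fold higher in cluster 16, and Pvalb_Vipr2 8.80-fold and 15.0-fold. L2_3_IT_ENTl was 3.95-fold and 3.56-fold higher, CR 2.70-fold and 2.46-fold, and VLMC 2.14-fold and 2.81-fold. OPC was 2.12-fold higher in the susceptible and 9.75-fold higher in the ketamine-treated section. Astro, the leading column, stood at only 1.39-fold and 1.66-fold, beside mean shares of 21.0% and 22.2% in all other spots. L2_IT_RSPv had a lower mean share in cluster 16 than in all other spots of both sections. It had 5.02% against 6.22% in the susceptible section, under the 1.5-fold threshold. In the ketamine-treated section it had 1.82% against 6.47%, which passed the threshold. Columns at 0 in cluster 16 in both sections and at 1% or more elsewhere were Sst_Chodl, L2_3_IT_CTX, L5_IT_CTX, L5_PT_RSP_ACA, L6_CT_CTX and NP_SUB. A count of 0 allows up to 4.45% and 4.399% of cluster 16 spots by the exact interval. All types with SUB in their name were held by only 4.33% and 3.74% of all spots. The count of 0 for NP_SUB therefore does not set cluster 16 apart.

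By the whole profile of mean shares, cluster 14 was not the nearest cluster. The distance used was the number of percentage points of share that would have to move from one column to another to make the profiles equal. Cluster 8 was nearest in both sections, at 37.6 points (susceptible) and 36.1 points (ketamine-treated). Cluster 14 ranked 3 of 15 in the susceptible section, at 48.7 points, and 10 of 15 in the ketamine-treated section, at 59.3. Cluster 16 of the susceptible section was 21.8 points from cluster 16 of the ketamine-treated section. This was closer than either was to any other cluster of its own section. The distance between the sections was not computed for other clusters.

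Within cluster 16, the ketamine-treated spots were set against the susceptible spots. The 3 highest columns summed to nearly the same share, 59.8% and 60.4%, but they were not the same columns: Astro, unknown and L2_IT_ENTl in the susceptible section, and Astro, L2_IT_ENTl and Oligo in the ketamine-treated section. Of 13 columns at 1% or more in either section, 7 (53.8%) differed by at least 1.5-fold. The same count was 14 of 18 (77.8%) in cluster 14 and 3 of 22 (13.6%) over all spots, where each mean rests on far more spots. OPC was 2.66-fold and Oligo 1.71-fold higher in the ketamine-treated section, and Peri and L6b_CT_ENT were held there only. Unknown, at 0.423 of its susceptible share, L2_IT_RSPv, at 0.363, and Sncg were lower. VLMC at 1.47-fold, Astro at 1.26-fold, L2_IT_ENTl at 1.07-fold, Pvalb_Vipr2 at 0.834, L2_3_IT_ENTl at 0.767 and CR at 0.670 stayed under the threshold.

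These differences rest on few spots, and for each of the 13 columns the intervals of the share of spots holding it overlapped between the sections. OPC was held by 2.47% (0.3004 to 8.64) and 7.32% (2.73 to 15.2) of spots, and Oligo by 7.41% (2.77 to 15.4) and 10.98% (5.14 to 19.8). Over all spots Oligo went the opposite way to cluster 16, with 13.9% of the susceptible and 12.7% of the ketamine-treated section. Of the 27 columns seen in either section, 12 were seen in both, 5 only in susceptible and 10 only in ketamine-treated cluster 16 spots. Peri was in 2 spots, and every other column seen in 1 section only was in 1 spot.

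The 10 resilient spots held 5 columns. Astro had a mean share of 35.2% from 4 spots, L2_IT_ENTl 24.5% from 4 spots, unknown 20% from 2 spots, Pvalb_Vipr2 15.5% from 2 spots and L2_3_IT_ENTl 4.82% from 1 spot. The L2_3_IT_ENTl spot also held L2_IT_ENTl, a pair not seen in cluster 16 of the susceptible and ketamine-treated sections. All 5 columns were also seen in cluster 16 of those sections. Oligo, CR and VLMC were not held by any of the 10, which allows a share of up to 30% of such spots.

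In the authors' deposited t-SNE map, which places spots by similarity and has no unit, cluster 16 formed 1 island. Of the 10 nearest spots of each susceptible cluster 16 spot, 98.3% were also in cluster 16, and the share was 99.9% for the ketamine-treated and 100% for the resilient spots. None of these neighbours was in cluster 14. Cluster 14 spots had 93.7%, 92.9% and 86.8% of neighbours in their own cluster in the same order of sections, and the authors' clusters and map describe the same spots. The sections were mixed on the island: the neighbours of susceptible spots were 52.5% susceptible, 45.1% ketamine-treated and 2.47% resilient, and those of ketamine-treated spots were 53.9% ketamine-treated, 44.4% susceptible and 1.71% resilient. Of the neighbours of the 10 resilient spots, 26% were resilient, while resilient spots were 5.78% of cluster 16.

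**Figure D3:**
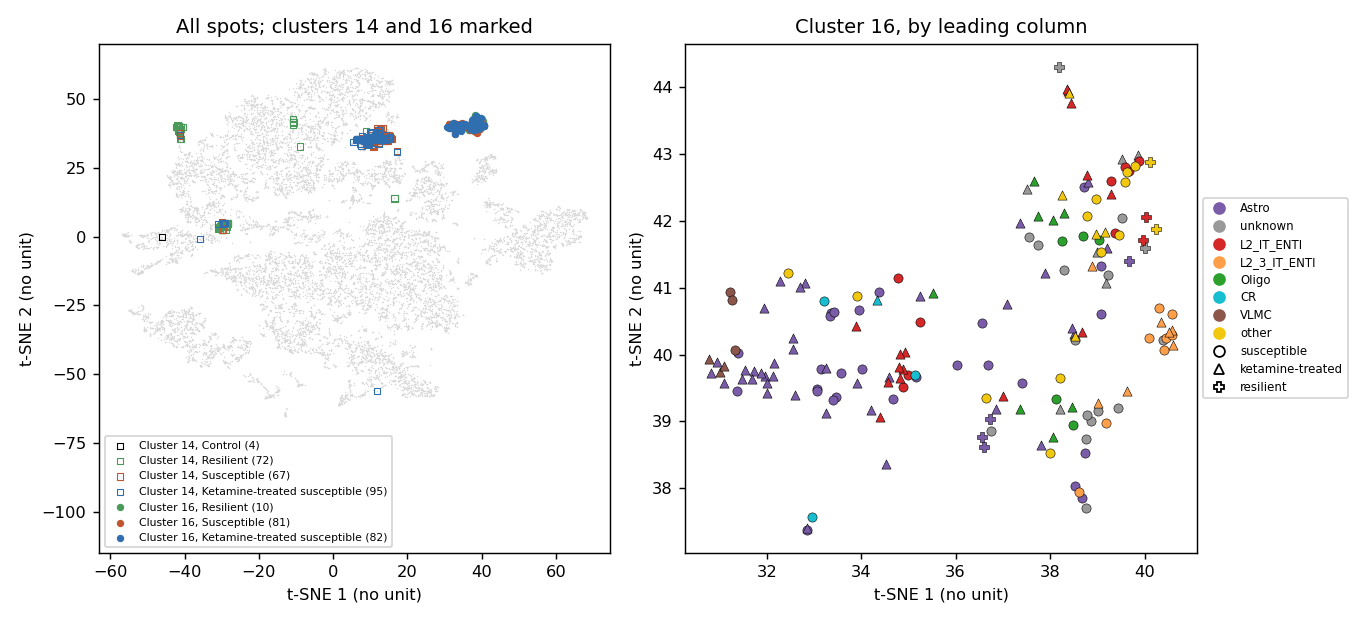
The left panel shows all 14809 spots in the deposited t-SNE map (grey; axes have no unit) with clusters 14 (open squares) and 16 (filled circles) coloured by section, and the right panel enlarges cluster 16, with colour for the leading column and shape for the section. Cluster 16 is 1 island of mixed sections, and spots led by Astro occur on its right side as well. Over the susceptible and ketamine-treated spots, Astro is held by 57 of 71 at the left end (end A below) and 22 of 92 at the right end (end B). L2_3_IT_ENTl is held by 0 and 17 of them.

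The island was not uniform in cell types. After seeing the map, its 173 spots were split into 2 ends by k-means with 2 centres on the map coordinates. End A held 30 susceptible, 41 ketamine-treated and 0 resilient spots, and end B held 51, 41 and 10. Over the susceptible and ketamine-treated spots, Astro had a mean share of 52.3% at end A and 18.3% at end B. CR had 12.6% and 0.797%, VLMC 8.38% and 0, and OPC 4.38% and 0. End B held all of the L2_3_IT_ENTl share (16.3%), the unknown share (21.7%) and the L2_IT_RSPv share (6.05%), and most of Oligo, with 11.9% against 1.41%. Pvalb_Vipr2 was also higher there, with 5.79% against 0.996%. L2_IT_ENTl had 13.8% at both ends, and 13.99% against 18.28% at the outer groups of a split with 3 centres. End A thus had the higher shares of Astro, CR, VLMC and OPC, and end B those of L2_3_IT_ENTl, Oligo, Pvalb_Vipr2, L2_IT_RSPv and unknown. Neither end was made up of these columns alone. At end A, L2_IT_ENTl had a higher share than CR, VLMC and OPC. At end B, Astro had a higher share than L2_3_IT_ENTl, L2_IT_ENTl and Oligo. In the ketamine-treated section Astro was the highest column of end B, at 19.6%. A column at 0 at an end allows a share of up to 4.23% of the 71 spots of end A.

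Spots with 1 column were 46.7% (28.3 to 65.7) of end A and 74.5% (60.4 to 85.7) of end B in the susceptible section. In the ketamine-treated section they were 26.8% (14.2 to 42.9) and 75.6% (59.7 to 87.6). Unknown spots are single-column by construction and all lay at end B. Without them end B had 64.9% (47.5 to 79.8) and 71.4% (53.7 to 85.4), so the intervals of the ends overlapped in the susceptible section and not in the ketamine-treated section. The ends were cut from a map that places these same spots by similarity, so some difference between them is built in. Their intervals describe the ends and test nothing. The ends also had unequal weight: end A was 37.0% (26.6 to 48.5) of cluster 16 in the susceptible and 50% (38.7 to 61.3) in the ketamine-treated section. Within the ends the Astro difference was smaller than over the cluster, at 4.47 percentage points higher in the ketamine-treated section at end A and 2.48 at end B, against 7.69 over all its spots. Oligo was 2.44 points higher at end A and 7.45 at end B. OPC was 2.72 points higher at end A. L2_IT_ENTl went opposite ways, -5.18 points at end A and 5.64 at end B, but the share of spots holding it had overlapping intervals at both ends. With 3 centres in place of 2, its share at end B was 18.24% (susceptible) and 18.32% (ketamine-treated). Unknown was -12.8 points at end B, where all of it lay.

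**Figure D4:**
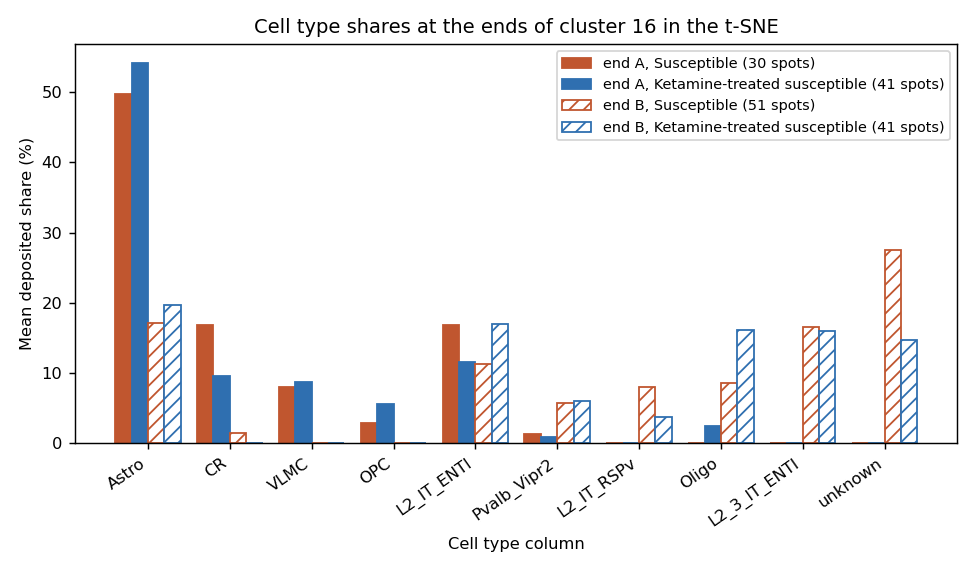
Bars give the mean deposited share (percent, from 0) of 10 columns at end A (filled) and end B (hatched) of the cluster 16 island, for the susceptible (orange) and ketamine-treated (blue) sections. Astro, CR, VLMC and OPC are higher at end A in both sections, and L2_3_IT_ENTl, Oligo, L2_IT_RSPv and unknown are higher at end B in both.

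The sections share spot barcodes, and a shared barcode was taken as the same array position on each slide area, which no source used here states. This comparison was also chosen after seeing the data. Of the 81 susceptible cluster 16 barcodes, 44 were present in the ketamine-treated table, and 40 of these were in cluster 16 there as well, or 90.9% (78.3 to 97.5). Over all 3304 barcodes that these sections share, 53.2% had the same cluster in both. Seen from the ketamine-treated section, 69 of 82 barcodes were present in the susceptible table and 40 were in cluster 16, or 58.0% (45.5 to 69.8), while 10 others were in cluster 14. The interval from the ketamine-treated side thus included the 53.2% of all shared barcodes. From that side clusters 3 (96.2%), 2 (75.0%), 6 (69.2%), 8 (65.3%), 10 (64.4%) and 1 (60.1%) had higher values. From the susceptible side cluster 3 had 72.9% and cluster 14 had 47.8%, both below cluster 16. The susceptible and ketamine-treated spots of cluster 16 thus lay on overlapping parts of the array, 123 distinct barcodes in all.

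At these 40 shared barcodes the leading column was the same in 14, or 35% (20.6 to 51.7), of which 9 were Astro. Over the other 1718 barcodes with 1 same cluster in both sections, the leading column was the same in 33.5% (31.2 to 35.8).

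In the resilient section all 81 and 82 of these barcodes were present, but none was in cluster 16. There, 69 of the 81 and 51 of the 82 were in cluster 1. In the control section 51 and 38 were present, of which 34 and 27 were in cluster 2. The 10 resilient cluster 16 barcodes were all in cluster 1 in the susceptible section. The cluster 16 spots of the resilient section were thus at other array positions than those of the susceptible and ketamine-treated sections. Where each section lay on its array, and whether the same brain regions were cut in each, was not analysed here, so the place of the section, the mouse and the treatment cannot be told apart.

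**Figure D5:**
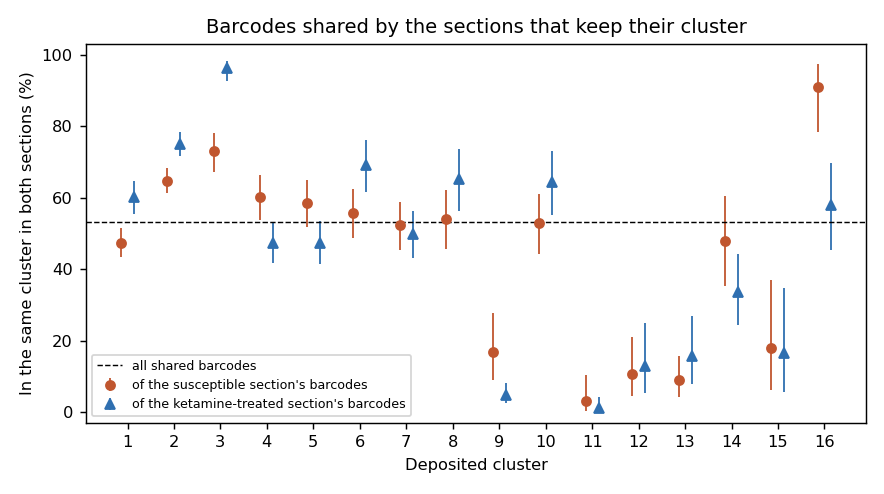
For each deposited cluster with at least 20 shared susceptible barcodes, the plot gives the percent of barcodes present in both the susceptible and the ketamine-treated table that have the same cluster in both, from the susceptible side (circles) and the ketamine-treated side (triangles), with 95% exact intervals. Cluster 16 has 90.9% and 58.0%, and the dashed line marks 53.2% over all shared barcodes.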

How the data were processed

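Spatial transcriptomics was run on 1 frozen sagittal section per group, on spatially barcoded slides, per the labels' protocols. The authors deposited, per the file headers, 1 table per section giving for every spot its cluster and the fraction assigned to each of 67 types and unknown. They also deposited 1 table of t-SNE coordinates (a score with no unit) for 14809 barcodes, matched to the sections by identical barcode sets. The submitters' processing notes name the genome build mm10. Aligner, clustering and the method behind the fractions: not given in the sources used here. No column of per-sample values was left unmapped (0).

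Members were the rows with cluster 16. Mean shares, spots holding or led by a column, exact intervals, column pairs, profile distances, t-SNE neighbours and barcodes shared between sections were computed with Python 3.11.15, pandas 2.3.3, numpy 2.4.6, scipy 1.17.1 and scikit-learn 1.9.0, and figures with matplotlib 3.10.9. Scripts were checked on simulated data. Columns were named at a mean share of 2% or more of cluster 16 in either section. Oligo, OPC, Astro, Micro, L2_IT_ENTl and L2_3_IT_ENTl were always named, as were up to 10 columns per direction with the largest ratios in a comparison. The members and lists were chosen with earlier results of these data known. No test was run, since each group is 1 section.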

Additional observations from a re-analysis of the deposited data

How the results depend on the processing

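With 1 section per group, no replicate could be left out. No paired analysis was possible because the groups share only 1 replicate number. Of the main values recomputed under the alternatives, 34 stayed and 5 moved. A share stayed if its new value lay within the exact interval of the main value, and a count if it was within 1.5-fold. Values that stayed could therefore differ in size. Astro in susceptible cluster 16 went from 29.2% to 39.5% when spots holding it were counted. The count between clusters 16 and 14 in that section went from 17 to 12 among neuronal types only. Counting spots that hold a column in place of mean shares gave 57.3% for Astro in ketamine-treated cluster 16, 31 columns between clusters 16 and 14 in that section, 20 columns between the sections within cluster 16, and 0.334 percentage points for Micro in ketamine-treated cluster 16 minus cluster 14, against -0.420 by mean share. The count between the sections was 7 by mean share, 12 by spots led, 4 with columns at 2% or more, and 8 with the ends weighted equally. Of the other values, 222 stayed, 18 moved and 1 reversed, the Micro value. Among these, differences were judged by their sign and, between clusters or sections, by keeping a 1.5-fold call. Among values under the 1.5-fold threshold some changed sign: ketamine-treated cluster 16 minus cluster 14 was 0.829 points for L2_3_IT_ENTl by mean share and -7.25 by spots holding, and ketamine-treated minus susceptible cluster 16 was -0.671 points for Pvalb_Vipr2 and 2.90 among neuronal types only. The causes were not tested. With 5 or 20 neighbours, or neighbours of the same section, at least 97.5% of t-SNE neighbours of cluster 16 were in cluster 16. Every column named for the ends kept its direction with a split at the median or with 3 centres, both chosen after seeing the data, but the difference of end A minus end B in L2_IT_ENTl went from -0.0274 to -4.29 points with 3 centres. Depth per spot was not analysed here.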
